A study of Rattus norvegicus with 24 samples.

Results

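A set of 57 genes stood higher in the rat left ventricle 12 weeks after a complete spinal cord transection than after sham surgery, with mean levels at 1 and 3 days that stayed near sham. They were picked from the 23098 Ensembl gene IDs of a count table labelled protein-coding. Each count was divided by the sum of its library and scaled by 1e6 to give CPM. The 11567 genes with a mean of at least 2 CPM over the 24 libraries were considered. This minimum includes the 12 week libraries, and some members reach it only through them. On the scale log2(CPM + 0.5), a member had a 12 week group mean at least 0.8 above the sham mean, and 1 day and 3 day means that each lay less than 0.4 from it. These conditions use the same 24 libraries that are described below, so the members' levels at all 4 times are a description of the choice and carry no test. Another ID was left out by name, and it also failed the acute limits, with differences from sham of 1.06 at 1 day and 0.41 at 3 days.

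All tissue came from male Wistar rats, from the free wall of the left ventricle at mid-ventricular height. The sham group had its dura opened high in the thoracic spine with the cord left intact and was collected 7 days after surgery. The SCI (spinal cord injury) groups had the cord cut through completely at a high thoracic level and were collected after 1 day, 3 days or 12 weeks. Each group has 6 libraries, and no label states that each came from a different rat, so the p-values below may measure spread that is in part technical. Strain, sex and ventricle are shared by all groups, and no age is stated. There was no sham group at 12 weeks, so the effect of the injury and that of later collection and further age cannot be told apart in any member. The 1 day and 3 day groups were likewise compared with sham tissue collected at 7 days.

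The sympathetic nerves that speed and strengthen the heartbeat leave the spinal cord at upper thoracic levels. A high transection separates those that leave below the cut from the brain. The vagus nerve, which slows the heart, runs outside the cord and stays connected. Over the weeks that follow, the heart also works under a changed load, since blood pressure, blood volume and physical activity are altered in chronic injury. In whole tissue, more cells of a type and more RNA per cell of that type cannot be told apart. The deposited table gives no gene symbols, and none of its IDs could be matched to the symbols in the reference table (0 matched), so the roles of the members and the markers of cell types, including those of the labelled tissue, are not described here.

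Depth ranged from 15002476 counts in 12 week replicate 1 to 70340174 in sham replicate 1. Within groups the 60 pairs of libraries differed by 13.3 to 115 in chi-square per degree of freedom, so that no pair agreed within sampling noise. A single library, 12 week replicate 3, stood apart from the others of its group. Its TMM factor, which scales for the make-up of a library, was 0.88 against 0.98 to 1.09 in the other 12 week libraries. It was the lowest of the 6 for 55.8% of the 11567 genes, whose median in it lay 0.17 below sham on the log2 scale. Values that it moves are therefore also given without it.

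At 12 weeks the typical member was at about 2 times its sham level, and a few were far higher. The difference between the 12 week and sham means ran from 0.80 to 2.86 on the log2(CPM + 0.5) scale, with a median of 0.97, where the median over the 11567 genes was 0.02. It passed 1 in 27 of the 57 members, as in 0.84% of the 11567 genes. As a ratio of mean CPM, 12 weeks over sham, the members lay between 1.72 and 12.9, with a median of 2.16. Without 12 week replicate 3 the range was 1.48 to 6.34 and the median 1.97, and the highest ratio in both cases was that of the member with the largest rise. Members were spread over a wide range of abundance, from 2.16 to 452 CPM as a mean over all libraries. Their median of 10.4 CPM was below the 19.8 CPM of all genes considered. The lowest count of any member in any library was 8, and the median of the members' lowest counts was 125.

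**Figure D1:**
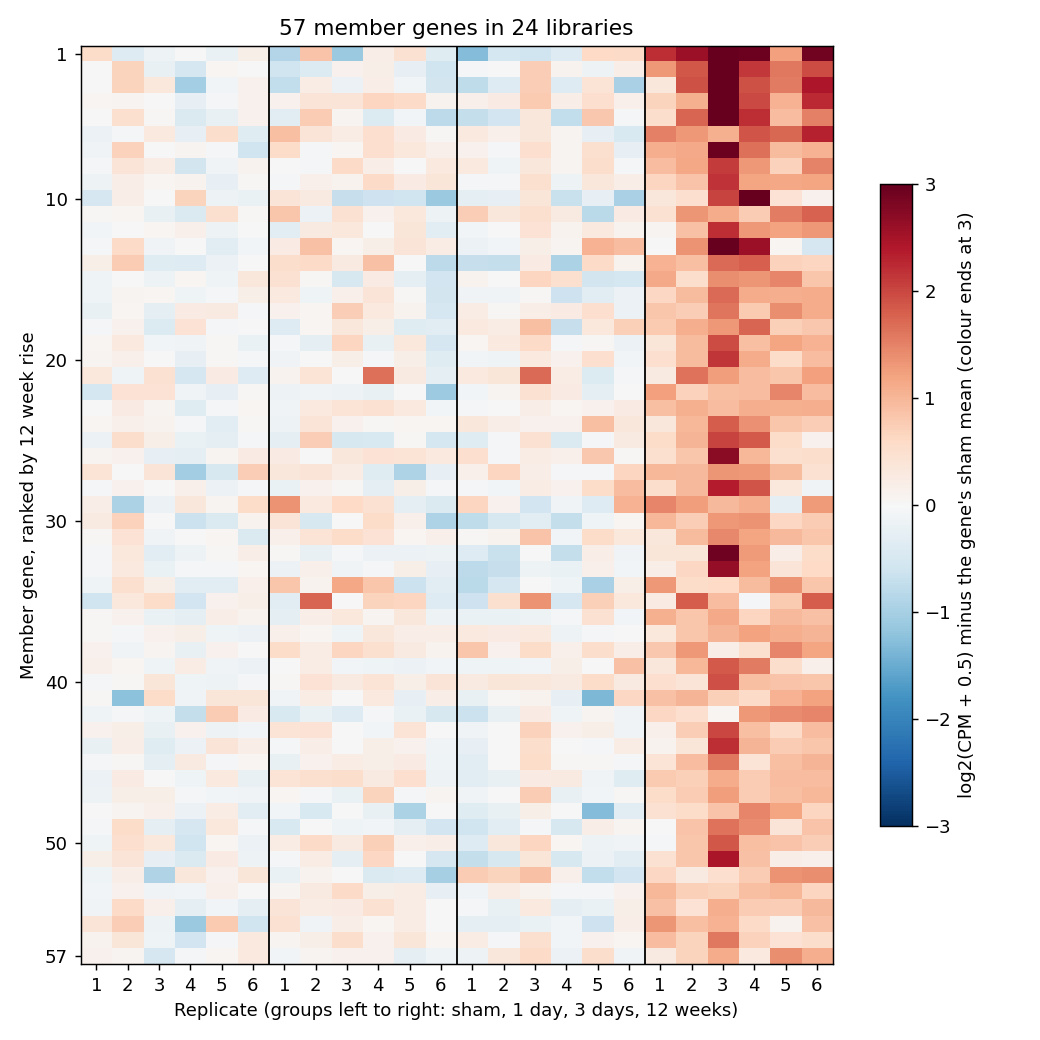
Difference of log2(CPM + 0.5) from the gene's own sham mean for the 57 members (rows, ordered by 12 week rise) in the 24 libraries (columns, 6 per group). The 12 week columns are red for nearly every member and replicate 3 is the darkest, and the colour scale ends at 3, which 7 of the 342 member values at 12 weeks exceed.

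At the threshold itself the choice is fine-grained. The 3 members just inside it had rises of 0.803, 0.804 and 0.806. The 3 genes just outside, which met every other condition, had 0.797, 0.790 and 0.780. The members nearest the threshold thus differ from their neighbours outside it by a few hundredths.

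The acute limits removed most of the genes that were high at 12 weeks. Of the 11567 genes, 1.52% were at least 0.8 above sham at 12 weeks. Apart from the ID left out by name these were 175 genes, and 118 of them were outside the acute limits. Of these, 70 were raised by at least 0.4 at both 1 and 3 days, 27 at 1 day alone and 7 at 3 days alone. A further 8 were lowered by at least 0.4 at both acute times, 2 at 1 day alone and 4 at 3 days alone. Among the genes outside the limits, high acute values were thus more common than low ones.

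**Figure D2:**
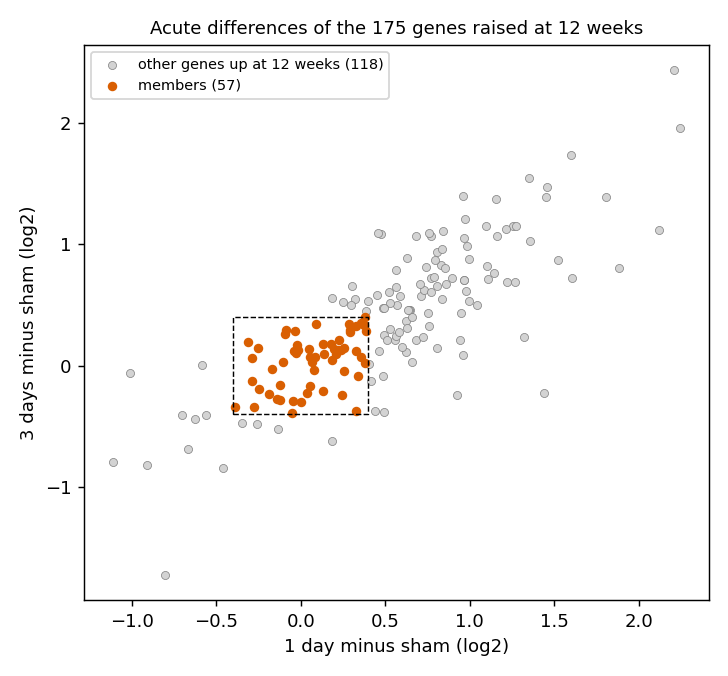
Difference from sham at 1 day (horizontal axis) and 3 days (vertical axis), both as log2(CPM + 0.5), for the 175 genes that met the 12 week condition. The 57 members lie inside the dashed square that marks the limit of 0.4 in each direction, and most of the 118 other genes lie above and to the right of it.

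Within the limits, the acute means of the members were not centred exactly on sham. The median difference was 0.08 at 1 day and 0.10 at 3 days, against 0.01 and -0.00 over the 11567 genes. Both acute means were above sham in 26 members (39.1% of the 11567 genes) and both below in 11 (38.2%). In 18 members both lay within 0.2 of sham (51.0% of all genes). No member had all of its 1 day libraries above all sham libraries, which 8.26% of the 11567 genes did, and 2 members had all of their 3 day libraries above sham, which 3.69% of all genes did. The rule limits these counts, and nothing is read from them.

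The median member was higher than sham in each 12 week library, as the rule for the 12 week mean favours. The median over members of the difference from sham lay between -0.16 and 0.18 in the sham libraries, between -0.15 and 0.20 at 1 day and between -0.10 and 0.33 at 3 days. At 12 weeks it was 0.55 in replicate 1, 0.90 in replicate 2, 1.60 in replicate 3, 1.12 in replicate 4, 0.91 in replicate 5 and 0.93 in replicate 6. All 6 medians at 12 weeks were thus above all 18 others, and replicate 3 was the highest. The choice of members bears on this order, and nothing is read from it. The lowest, replicate 1, was also the shallowest library of the study, and the part of depth in its value was not tested. The medians averaged 1.00 ± 0.35 at 12 weeks (SD, n = 6) and 0.88 without replicate 3.

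**Figure D3:**
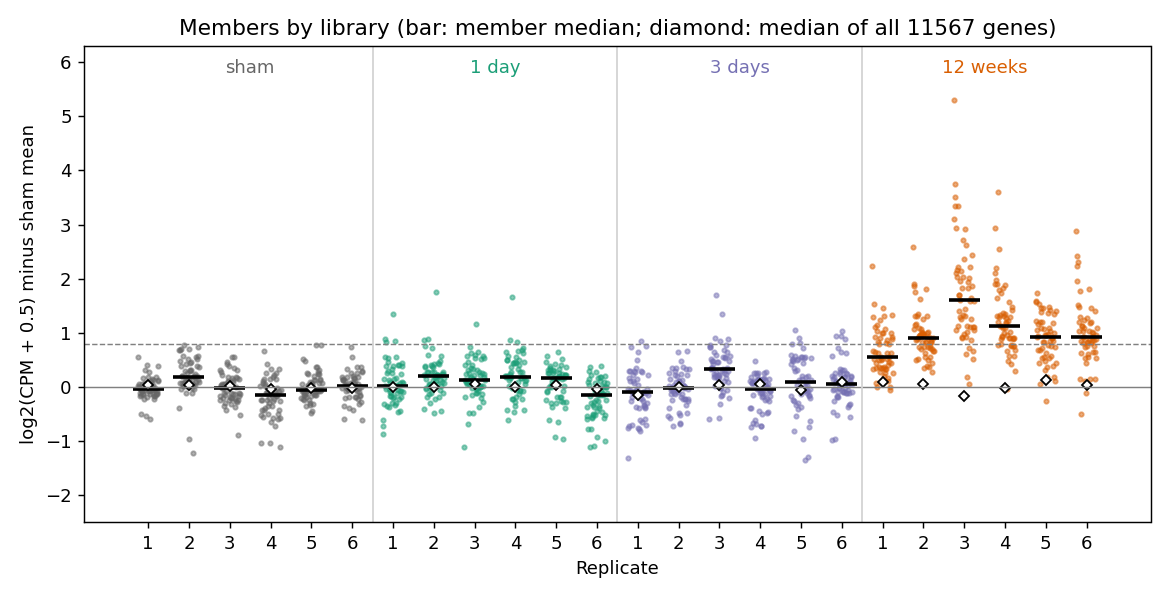
Each point is a member in a library, as the difference of log2(CPM + 0.5) from its sham mean, with the libraries grouped by time on the horizontal axis. Black bars are member medians and diamonds the medians of all 11567 genes, and the dashed line is the 0.8 threshold. The 12 week bars run from 0.55 to 1.60 while the diamonds stay near 0.

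Summed over the members, the level was also highest at 12 weeks, as the rule favours. Together they took 1436 ± 150 CPM in sham (SD, n = 6), 1587 ± 185 CPM at 1 day, 1590 ± 217 CPM at 3 days and 3462 ± 1727 CPM at 12 weeks. The 12 week sums were 2180, 2752, 6700, 4130, 2531 and 2479 CPM in order of replicate number, and all lay above the highest of the other groups, 1862 CPM. Replicate 3 again had the largest sum, followed by replicate 4, and without replicate 3 the 12 week sums averaged 2814 ± 763 CPM (SD, n = 5). The most abundant member weighs heavily in these sums. It alone had 2546 CPM in replicate 3 and 1482 CPM in replicate 4, against 177 to 643 CPM in the other 12 week libraries.

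Without 12 week replicate 3, 39 of the 57 members still met the rule. The 18 others all missed the 12 week condition, with rises of 0.50 to 0.79, and none of them missed the minimum of 2 CPM. Over all members the median rise was then 0.89. The members that held had a median rise of 1.03 with all libraries, against 0.88 for those that did not. Another 13 genes met the rule only without this library, with rises of 0.59 to 0.78 when it was included, so that 52 genes met it in all.

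**Figure D4:**
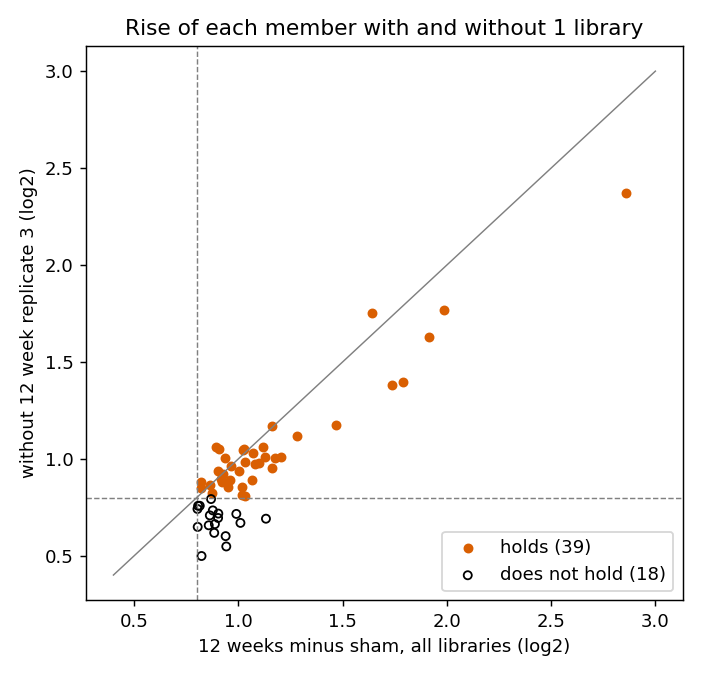
Rise of each member from sham to 12 weeks on the log2(CPM + 0.5) scale, with all libraries (horizontal axis) and without 12 week replicate 3 (vertical axis). Dashed lines mark the 0.8 threshold and the grey line equality. The 39 filled points stay above the threshold and the 18 open points fall to between 0.50 and 0.79.

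The size of the lead of replicate 3 divided the members. It was the highest 12 week library for 35 of the 57, and for 12.3% of the 11567 genes. In 23 members it lay more than 1 log2 unit above the mean of the other 5 libraries, as in 1.93% of the 11567 genes. A high value in replicate 3 raises the 12 week mean that the rule uses. The choice of members therefore favours both counts, and nothing is read from them. For these 23 the library medians at 12 weeks were 0.45, 0.95, 2.36, 1.30, 0.75 and 0.84 in order of replicate number, and 12 of them held without replicate 3. For the remaining 34 members the medians were 0.82, 0.88, 1.12, 0.94, 0.97 and 0.98, and 27 held. The division itself fixes that replicate 3 is higher in the 23 than in the 34, so that the medians only describe it. It was made after the values were seen and has no test.

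The member with the largest rise was ENSRNOG00000007545. Its level was 1.82 to 3.95 CPM in the sham libraries with a median of 2.38 CPM, 0.90 to 5.01 CPM at 1 day with a median of 2.41 CPM, and 0.72 to 4.06 CPM at 3 days with a median of 1.70 CPM. At 12 weeks the 6 libraries had 13.7, 17.6, 119, 22.7, 6.56 and 21.9 CPM in order of replicate number. Every 12 week library was above every other library, and replicate 3 was far above the rest. The means were 2.60 ± 0.76 CPM in sham and 33.6 ± 42.4 CPM at 12 weeks (SD, n = 6), a log2 fold change of 3.78 in edgeR's fit (SE 0.60). Without replicate 3 it was 2.62. The gene kept its place without replicate 3, with a rise of 2.37, but left the set without 3 day replicate 5 or 6, where its 3 day difference from sham was -0.45 in both cases.

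ENSRNOG00000017392 had the second largest rise and the widest gap to the other groups. It had 1.34 to 3.70 CPM in sham with a median of 2.13 CPM, 1.23 to 2.48 CPM at 1 day with a median of 1.60 CPM, and 1.85 to 3.86 CPM at 3 days with a median of 2.24 CPM. The 12 week libraries had 5.93, 9.07, 22.0, 10.9, 7.41 and 9.75 CPM. The lowest of them lay 0.56 above the highest of the 18 others on the log2(CPM + 0.5) scale. Its mean was 2.21 ± 0.80 CPM in sham and 10.8 ± 5.72 CPM at 12 weeks (SD, n = 6), with a log2 fold change of 2.32 in edgeR's fit (SE 0.30) and of 1.91 without replicate 3. It met the rule whichever of the 24 libraries was left out.

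**Figure D5:**
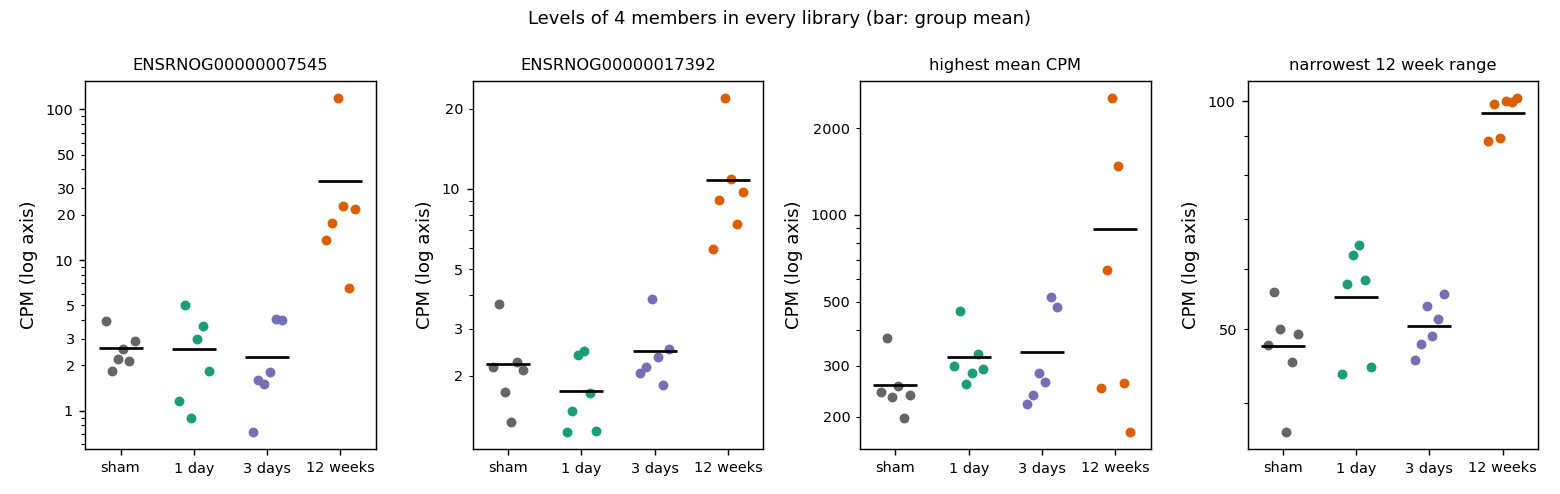
CPM on a log axis in each of the 6 libraries per group for the members with the largest and the second largest rise, the most abundant member and the member with the narrowest 12 week range, with bars at the group means. In the third panel 3 of the 6 points at 12 weeks lie among or below the sham points, and in the fourth the 12 week points lie between 88.7 and 101 CPM.

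The range within the 12 week group was wide for some members and very narrow for others. Beyond those IDs, the following members were singled out after their values were seen, and their IDs are not printed. The most abundant member had 197 to 374 CPM in sham and 251, 643, 2546, 1482, 261 and 177 CPM at 12 weeks. Replicates 2, 3 and 4 were above all sham libraries, and replicates 1, 5 and 6 lay within or below the sham range. Its mean of 893 ± 945 CPM at 12 weeks (SD, n = 6) therefore lies between libraries near sham and libraries far above it, and its rise of 1.13 was 0.69 without replicate 3. The member ranked 10 by its rise had 118 CPM in replicate 4, 39.7 CPM in replicate 3 and 10.3 to 13.4 CPM in the others, against 6.45 to 15.0 CPM in sham.

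At the other extreme, the member with the narrowest 12 week range had 88.7, 99.1, 89.5, 100.2, 99.8 and 101 CPM there. Sham libraries had 36.6 to 56.1 CPM, 1 day libraries 43.6 to 64.5 CPM and 3 day libraries 45.5 to 55.7 CPM. No 12 week library overlapped another group, and the log2 fold change against sham was 1.01 in edgeR's fit (SE 0.09), whose small error goes with a member singled out for its narrow range. The level was thus about as high in replicate 3 as in the rest of the group, and the gene held under every leave-out.

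Separation of whole groups was common but not general among the members. In 14 of the 57 the lowest 12 week library was above the highest of the 18 others, where 1.18% of the 11567 genes had this pattern. In 30 members it was above the highest sham library, where 4.6% of all genes had it. Both counts were the same without replicate 3, with 2.32% and 9.85% of all genes. The lowest 12 week library was above all 1 day libraries in 29 members (7.72% of all genes) and above all 3 day libraries in 20 (5.93%). The rule used these libraries, and the shares over all genes are given only for scale. Among the 14 is a member with means of 1.92 CPM in sham, 1.53 CPM at 1 day and 1.48 CPM at 3 days. That member reached the minimum of 2 CPM only through its 12 week libraries. The 14 separated members had 12 week library medians of 0.96, 0.90, 1.37, 1.16, 1.13 and 1.11, a description only, since they were chosen for a high lowest library.

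In the other 27 members, some 12 week libraries overlapped sham. Counting 12 week libraries above the highest sham library, 18 members had 5 such libraries, 6 had 4, 2 had 3 and 1 had 2, where 8.15%, 9.72%, 11.5% and 14.4% of the 11567 genes had these numbers. Counted as libraries at least 0.8 above the sham mean, 5 members had all 6, 16 had 5, 14 had 4, 17 had 3 and 5 had 2. Of all genes, 0.251% had all 6 such libraries and 3.84% had at least 2. All 6 libraries were above the sham mean in 52 members, as in 14.6% of all genes. The rule bears on all these counts too.

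In the fit over all 15065 genes with enough counts, edgeR's quasi-likelihood test with Benjamini-Hochberg adjustment called 56 of the 57 members higher at 12 weeks than in sham, where 11.3% of the tested genes were called higher. The rule used this contrast, so the count is not support for the members. Their log2 fold changes ran from 0.76 to 3.78 with a median of 1.14, against 0.01 over the tested genes. The exception was the least abundant member, with 0.67 to 2.10 CPM in sham and 1.22 to 5.68 CPM at 12 weeks, a log2 fold change of 1.28 (SE 0.48, edgeR adjusted p = 0.0544). Without 12 week replicate 3, 54 members were called higher (11% of tested genes), and the median log2 fold change over the 57 was 0.91. At 1 day and at 3 days edgeR called none of the members against sham in either direction, where it called 11.9% and 8.88% of tested genes higher and 12.1% and 8.59% lower. An unadjusted p under 0.05 was seen in 3 members at 1 day and in 1 at 3 days, against 36.4% and 30.5% of tested genes. DESeq2 called 1 member higher at each time, against 13.1% and 9.46% of the genes to which it gave an adjusted p, and 0 lower, against 12.4% and 8.69%. The acute limits of the rule hold these counts down.

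Most members were also called higher than in the acute injured groups. In edgeR's fit, 53 of the 57 members were higher at 12 weeks than at 1 day (17.8% of tested genes), with a median log2 fold change of 1.15. Against 3 days, 53 were called higher (16.0% of tested genes), with a median of 1.06. Without 12 week replicate 3, 47 were called higher than at 1 day (15.7% of tested genes, median 0.82) and 49 higher than at 3 days (14.2%, median 0.84). The numbers in the library names of sham and 3 days form a run (57 to 68), and those of 1 day and 12 weeks another (77 to 88). Whether these runs of numbers mark separate handling is not known here. Within the latter the members were higher at 12 weeks by 0.499 to 3.00 on the log2(CPM + 0.5) scale, with a median of 0.94. The rule alone fixes a difference above 0.4 here. The comparison of 12 weeks with sham has no value within either run of numbers, so that run and group cannot be told apart there.

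The members also varied more from library to library than most genes, including in groups where they were not raised. The median SD within sham was 0.29 on the log2(CPM + 0.5) scale, against 0.12 over the 11567 genes. It was 0.26 against 0.14 at 1 day, 0.32 against 0.19 at 3 days and 0.50 against 0.20 at 12 weeks, or 0.38 against 0.16 there without replicate 3. The rule used these same libraries, and a choice by differences of group means can favour genes with a wide spread. Members were also less abundant than the average gene. The parts of the choice and of abundance in this spread were not tested. At 12 weeks the SD of single members ran from 0.09 to 1.55.

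Membership was sensitive to other libraries too, though less than to 12 week replicate 3. With each of the 24 libraries left out in turn, 39 to 57 members held, and 18 held every time. After 12 week replicate 3 with 39, the fewest members held without sham replicate 3 or 4, with 45 each. Without 12 week replicate 1, 54 members held and 15 further genes entered. The 18 that always held had a median rise of 1.07, and 9 of them belonged to the 14 whose 12 week libraries all lay above the 18 others.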

How the data were processed

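RNA-seq counts from 24 left ventricle libraries were used. The authors deposited raw counts per Ensembl gene ID in 1 table, which is labelled protein-coding. Library depth and shares over all genes refer to that table only. The tools named in the submitters' processing notes are FastQC 0.12.1, STAR 2.7.11a and featureCounts 2.0.6, with the build mRatBN7.2. Per the labels the libraries were rRNA-depleted and strand-specific. How strand and multi-mapping reads were handled in counting is not given in the sources used here, so overlapping genes and near-identical copies may share reads. Of 26166 lines, 3068 repeated an ID, and each of the 23098 IDs was used once. The members and lists were chosen with earlier results of these data known.

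CPM, group means and the rule were computed in Python 3.11.15. Counts were tested with edgeR 4.0.16 in R 4.3.3 (filterByExpr, TMM, quasi-likelihood F test, two-sided, 1 term per group, 20 residual degrees of freedom). DESeq2 1.42.0 was an alternative. Steps were tested on simulated data.

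The rule for named genes needs symbols and falls back, without them, on the 2 IDs with the largest rise. The prepared pathway lists, marker lists and promoter motifs also need symbols and were not run. Alternatives covered the pseudocount, the CPM minimum, the scaling, the thresholds, the filter, the groups in the fit, the replicate number and each library left out.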

Additional observations from a re-analysis of the deposited data

Results flagged for a closer look

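The summed level of the members in sham replicate 2 was 1737 CPM, while the other 5 sham libraries had 1325 to 1408 CPM. It was picked out because its gap to the next library is large for a group of 6. The cut-off for this is one that chance passes in about 1 group of 20, and no probability was computed for the gap itself. It lies below every 12 week sum, of which the lowest was 2180 CPM.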

How the results depend on the processing

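The count of 57 members was 94 with no CPM minimum and 27 with a rise of at least 1, which follow from a wider and a narrower rule. Under the 8 other settings of the rule it was 40 to 73. One of them, the median of logs in place of the mean, gave 51, of which 34 were among the 57. With TMM scaling 50 genes met the rule and 49 were shared. That scaling moves the median of all genes in 12 week replicate 3 from -0.17 to 0.00, and the member median there from 1.60 to 1.78. With 1 library left out, 47 to 69 genes met the rule.

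Members called higher at 12 weeks than in sham numbered 53 to 56 with 1 library left out and 54 to 56 under the other settings. Against 1 day they numbered 47 to 54 and 51 to 53. In the main fit 11.3% and 17.8% of tested genes were called higher in these 2 comparisons. With 1 library left out, 1384 to 1828 and 2340 to 2817 of all tested genes were. The rule used these libraries, so the steadiness of the member counts is not support for the members. The counts of all genes called stayed within 1.5 times in each comparison and setting run. Deviations of same-numbered libraries of different groups from their group means had a median correlation of -0.01, above 0.1 in 4 of 36 pairs. For libraries with other numbers the median was 0.00, above 0.1 in 14 of 180 pairs. A pairing by number was not seen in these values, which cannot exclude it, and the main fit used none. With the replicate number as a block, 54 members were called higher than sham, as were 1508 of all tested genes. In that fit 52 members were higher than at 1 day. The log2 fold changes of ENSRNOG00000007545 and ENSRNOG00000017392 against sham were then 3.32 and 2.17.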

Other observations

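Outside 12 weeks, single libraries also led many members at once. In sham, replicate 2 was the highest library for 25 of the 57 members and for 26.6% of the 11567 genes. At 3 days, replicate 3 was the highest library for 29 of the 57 members and for 21.9% of the 11567 genes, with a member median of 0.33. In 7 members a single 3 day library was picked out as standing apart above the other 5 on the log2 scale. It was 3 times replicate 3, 3 times replicate 5 and once replicate 6. In 5 members 12 week replicate 3 was picked out so. A library picked out in the same way on the high side was seen in 2.07% of all genes at 3 days and in 2.58% at 12 weeks. At 1 day, replicate 6 was the lowest library for 27 members, where it was lowest for 26.5% of all genes, and the highest for 0.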
